A study of Mus musculus with 12 samples.

Results

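B1 and atypical B cell genes, 10 genes that mark B1 cells or atypical, age-associated B cells were followed across 12 mRNA libraries of mouse splenic B cells: Ctla4, Bhlhe41, Zbtb32, Cd5, Spn, Ahnak, Zeb2, Tbx21, Fcrl5 and Itgax. They were picked by gene symbol, and all 10 were found among the 52330 genes common to the 3 deposited count tables. The 10 genes and the lists of other genes used below were chosen with earlier results of these data known. The study compared cells lacking hnRNP A1 and hnRNP A2B1, RNA-binding proteins of splicing, with wild-type (WT) cells. The double knockout (DKO) was made with Cre-loxP. The sources used here do not give the promoter driving Cre, the age of the mice or any allele carried by the WT mice. The libraries were 2 DKO and 2 WT samples stimulated for 48 h with anti-CD40 at 1 μg/mL plus anti-IgM at 10 μg/mL, 3 DKO and 3 WT untreated samples, and 2 additional untreated WT samples in a table of their own. The labels do not say which replicates came from separate animals. Each untreated group of 3 held libraries of both sexes, read from sex-linked transcripts, and so more than 1 animal; beyond that, the p-values measure the spread between these samples, which may be technical in part.

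B1 cells are self-renewing B lymphocytes, abundant in body cavities and rare in spleen, that make natural antibody and carry CD5 in one subset and CD43 in most. Age-associated or atypical B cells accumulate with age, chronic infection and autoimmunity and are known for T-bet, CD11c and FCRL5. Most splenic B cells are follicular cells with low levels of both programmes. CD43, the product of Spn, was also the handle of the purification: the cells had been isolated by depletion with CD43 magnetic beads, a step that removes CD43-bearing cells such as B1 cells along with T cells and myeloid cells. The values below therefore describe these genes in what was left after that step.

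The libraries held 15090953 to 21731893 counts. DKO libraries kept 11.2 to 29.3% of the mean WT level of Hnrnpa1 when untreated and 14.4 to 16.2% when stimulated, with 18.5 to 34.4% and 20.1 to 24.0% for Hnrnpa2b1. B cell defining genes such as Cd79a and Ms4a1 were high in all 12 libraries, with at least 8788 counts of Ms4a1. Untreated DKO library 1 and untreated WT library 2 read as female from their sex-linked transcripts, and the other 10 libraries read as male. The 2 stimulated DKO libraries stood farther apart than any other replicate pair, with a chi-square per gene of 50.2 against 7.42 to 25.1 for the others. For that reason the 10 genes are given library by library where stimulated DKO and WT cells are compared.

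Per transcript length, Zbtb32 was the most abundant of the 10 in untreated cells, at 14.8 ± 2.1 RPKM in DKO and 22.7 ± 4.2 RPKM in WT (SD, n = 3 each; RPKM being CPM divided by the deposited exonic length in kilobases). Fcrl5 was next at 7.15 ± 1.67 RPKM in DKO and 11.5 ± 0.31 RPKM in WT, and then Spn at 3.94 ± 0.73 RPKM in DKO and 7.64 ± 1.24 RPKM in WT. The ranges of these 3 genes did not overlap within either genotype, but Tbx21, with means of 2.29 RPKM in DKO and 5.22 RPKM in WT, overlapped Spn in both, so the third place was not clear. Itgax and Cd5 closed the order in both genotypes, with overlapping ranges and means of 0.238 and 0.159 RPKM in DKO and 0.348 and 0.287 RPKM in WT. Between these ends, the ranges of Zeb2, Ahnak and Ctla4 could not be put in order beyond their spread in either genotype. Of the genes tested in untreated cells, 72.2% lay below Zbtb32 in DKO and 81.6% in WT, while 2.59% lay below Cd5 in DKO and 5.05% in WT. After stimulation the order changed: Fcrl5, Zbtb32 and Spn led in DKO at means of 9.48, 9.03 and 7.52 RPKM, where Zbtb32 overlapped both of the others and Fcrl5 was clear of Spn, whereas Spn led in WT at 17.9 RPKM, clear of Fcrl5 at 12.7 RPKM.

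**Figure D1:**
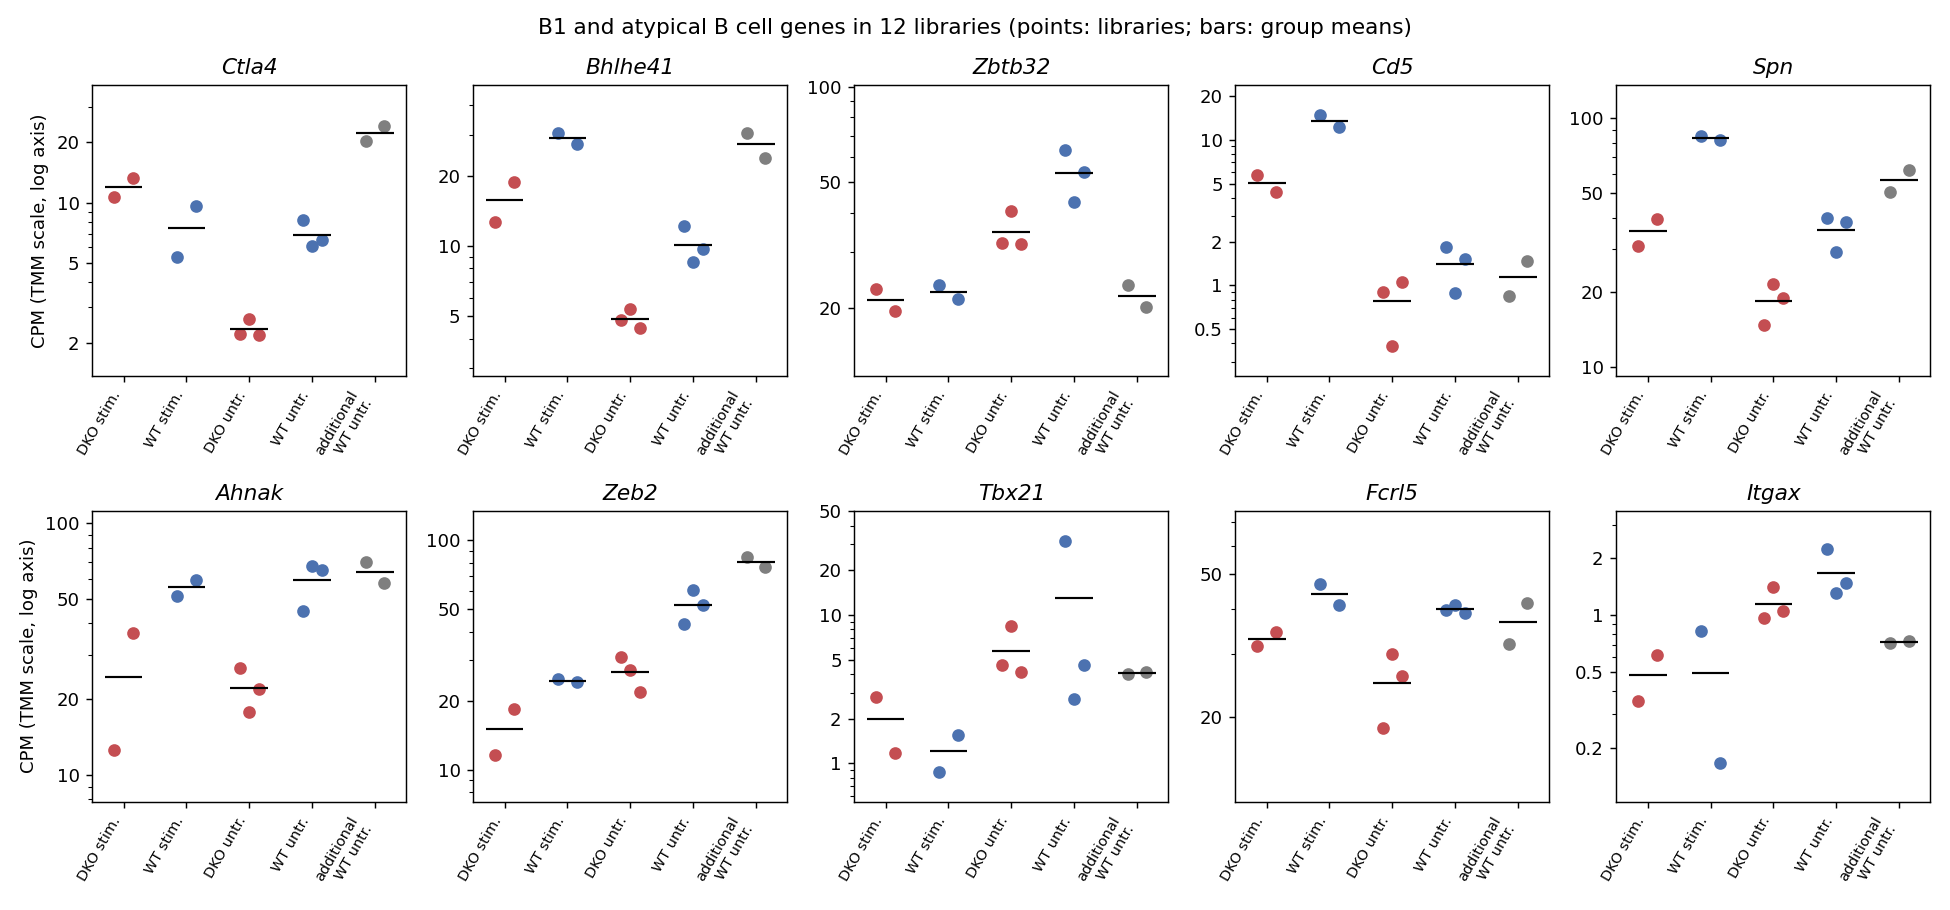
Level of each of the 10 genes in every library, in CPM on a common TMM scale (log axis); points are libraries, black bars are group means, and from left to right the groups are stimulated DKO, stimulated WT, untreated DKO, untreated WT and additional untreated WT. Untreated DKO points sit below untreated WT points without overlap for 7 genes, and the additional WT points lie above the other untreated libraries for Ctla4, Bhlhe41, Spn and Zeb2 and below them for Zbtb32 and Itgax.

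In untreated cells, 7 of the 10 genes were lower in DKO than in WT and none was higher at an adjusted p under 0.05 in edgeR's quasi-likelihood test: Ctla4, Ahnak, Bhlhe41, Zeb2, Spn, Fcrl5 and Zbtb32. Ctla4 fell the most, to 0.334 of the WT level, and Zbtb32 the least, to 0.644 of it. The background was 10.6% of 13561 genes called lower and 8.81% called higher. All 10 estimates were negative, with a median log2 fold change of -0.97 over the 10 genes and -0.0060 over all tested genes. The DKO and WT libraries did not overlap for the same 7 genes, against 20.0% of all tested genes with DKO libraries all lower. These are bulk samples, in which fewer cells of a kind and less RNA per cell cannot be told apart.

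Among the 4 transcription factors, Bhlhe41, a repressor needed for B1a cell development and self-renewal in mice, measured 4.80, 5.35 and 4.43 CPM (counts scaled to a common library size) in untreated DKO libraries 1 to 3, against 12.2, 8.54 and 9.66 CPM in WT libraries 1 to 3. Every DKO library was lower than every WT library, with a log2 fold change of -1.07 ± 0.18 (SE; adjusted p = 0.00628). Zeb2, a zinc finger E-box binding factor required for age-associated B cells, measured 30.9, 27.2 and 21.8 CPM in DKO and 43.1, 60.8 and 52.2 CPM in WT. It fell by 0.98 ± 0.16 on the log2 scale (adjusted p = 0.00501), again without overlap between genotypes. Zbtb32, a repressor that restrains secondary antibody responses, measured 32.0, 40.5 and 31.9 CPM in DKO and 63.3, 43.4 and 53.9 CPM in WT. The highest DKO library and the lowest WT library lay close together, and the log2 fold change was -0.64 ± 0.15 (adjusted p = 0.0192).

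Tbx21, which encodes T-bet, differed from the other factors in that 1 library set its mean. It measured 4.60, 8.41 and 4.10 CPM in untreated DKO libraries, against 31.6, 2.73 and 4.63 CPM in WT libraries 1, 2 and 3. WT library 1 held 624 Tbx21 counts, and WT libraries 2 and 3 lay within or below the DKO range. The log2 fold change of -1.20 ± 0.78 missed the threshold (adjusted p = 0.309), and without WT library 1 its sign turned, to 0.60 ± 0.36 (adjusted p = 0.307). The 2 genes whose levels ran most like those of Tbx21 over the 10 libraries were Gbp5, an interferon-induced GTPase gene, and Serpina3g, a serpin gene (Pearson r of 0.96 and 0.95 on the log2 scale). Serpina3g measured 17.2, 31.8 and 16.0 CPM in DKO libraries and 104.6, 18.4 and 29.3 CPM in WT libraries 1 to 3, so it was high in the same WT library. Natural killer cell markers summed to 3.90 to 8.41 CPM in DKO and to 13.9, 10.9 and 8.28 CPM in WT libraries 1 to 3. Il2rb alone gave 2.38 to 4.27 CPM of these sums in DKO and 6.75 to 7.95 CPM in WT libraries. The part of natural killer cells in the Tbx21 values was not tested.

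Among the surface receptors, Ctla4 showed the most negative estimate of the 10 genes. It encodes an inhibitory receptor for CD80 and CD86 that is best known on T cells and is also present on B1a cells. Untreated DKO libraries measured 2.20, 2.61 and 2.18 CPM (34, 41 and 33 counts), and WT libraries measured 8.21, 6.05 and 6.51 CPM (162, 102 and 132 counts). All 3 DKO libraries were well under the lowest WT library, with a log2 fold change of -1.58 ± 0.21 (adjusted p = 0.00268). T cell markers in the same libraries, other than Lck, which B cells also transcribe, had at most 18 counts each in DKO and 26 in WT. They included Trac at 9 to 17 counts in both genotypes, Foxp3 at 5 to 9 in DKO and 6 to 12 in WT, Cd28 at 2 to 3 in DKO and 6 to 13 in WT, Icos at 6 to 8 in DKO and 0 to 26 in WT, and Cd3e at 0 to 2 in both. The part of T cells in the Ctla4 values was not tested. Spn, the sialomucin CD43, measured 14.8, 21.5 and 19.0 CPM in DKO and 39.8, 29.1 and 38.4 CPM in WT. It was lower in DKO without overlap, by -0.97 ± 0.17 on the log2 scale (adjusted p = 0.00642). Fcrl5, an Fc receptor-like protein of B1, marginal zone and atypical B cells, measured 18.6, 30.0 and 26.1 CPM in DKO and 39.8, 40.98 and 38.9 CPM in WT. The WT libraries lay close together and above all DKO libraries, with a log2 fold change of -0.69 ± 0.16 (adjusted p = 0.0170).

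Cd5 and Itgax were near the lower end of detection in untreated cells. Cd5, a scavenger-type receptor that dampens B cell receptor signals and defines B1a cells, had 14, 6 and 16 counts in DKO and 36, 15 and 31 counts in WT. The groups overlapped by 1 count, and a log2 fold change of -0.87 ± 0.44 missed the threshold (adjusted p = 0.192). Itgax, which encodes the integrin chain CD11c, had 15, 22 and 16 counts in DKO and 44, 22 and 30 counts in WT, with a log2 fold change of -0.56 ± 0.33 (adjusted p = 0.262). For both genes the estimate was negative but not resolved beyond the spread between libraries.

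Ahnak encodes a very large scaffold protein that takes part in calcium channel regulation in lymphocytes. It measured 26.6, 17.8 and 21.9 CPM in untreated DKO libraries, against 44.7, 67.8 and 65.3 CPM in WT libraries. No DKO library reached the lowest WT library, and the log2 fold change was -1.44 ± 0.19 (adjusted p = 0.00268). Leaving out each of the 6 libraries in turn, Ctla4, Ahnak, Bhlhe41, Zeb2 and Spn stayed past the threshold every time, with adjusted p up to 0.0359. Fcrl5 stayed past it in 4 of 6 fits and was lost without WT library 3 (adjusted p = 0.0559) and without DKO library 3 (adjusted p = 0.0575). Zbtb32 stayed past it in 3 of 6 and was lost without WT library 3 (adjusted p = 0.0683), DKO library 1 (adjusted p = 0.0503) and DKO library 3 (adjusted p = 0.0820).

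The 2 additional untreated WT libraries did not sit with the numbered WT libraries for several of these genes. Ctla4 measured 20.3 and 24.1 CPM in them, Bhlhe41 30.6 and 23.8 CPM, Spn 50.7 and 62.3 CPM and Zeb2 84.2 and 76.8 CPM, all above every numbered untreated library of either genotype. Ahnak, at 70.0 and 58.0 CPM, lay above and within the range of the numbered WT libraries, and Fcrl5, at 31.9 and 41.5 CPM, lay below and above that range and above all DKO libraries. Zbtb32 went the other way, at 23.7 and 20.1 CPM, below all 3 DKO libraries. With these 2 libraries counted as WT, 3 of the 10 genes passed the test as lower (Spn, Ahnak and Zeb2), against 1.64% of all genes tested. Ctla4 and Bhlhe41 then gave larger estimates, -2.48 ± 0.55 and -1.81 ± 0.46, that missed the threshold (adjusted p = 0.0547 and 0.0761), and Zbtb32 stood at -0.25 ± 0.37 on the log2 scale (adjusted p = 0.693). With them in place of the numbered WT libraries, 6 genes passed as lower, against a background of 29.4% of all genes, and Zbtb32 passed as higher in DKO, by 0.70 ± 0.16 (adjusted p = 0.00374), against 30.6%. Lower Zbtb32 in DKO was thus seen only against the numbered WT libraries. The additional libraries also had 168 to 218 CPM of Adgre1, the gene of the macrophage marker F4/80, against 15.8 to 21.3 CPM in untreated DKO and 30.2 to 45.8 CPM in numbered WT libraries. The 13 monocyte and macrophage markers summed to 194 to 244 CPM in them, most of it Adgre1, against 41.6 to 77.5 CPM in untreated DKO and 68.3 to 83.8 CPM in numbered WT libraries. Cd68 was also higher in them, at 14.8 to 16.0 CPM against 7.80 to 10.5 CPM in DKO and 8.13 to 11.4 CPM in numbered WT libraries, while Lyz2 was lower, at 3.35 to 3.63 CPM against 12.8 to 30.3 CPM in DKO and 6.66 to 24.7 CPM in numbered WT libraries. The part of such cells in the values of the 10 genes was not tested.

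**Figure D2:**
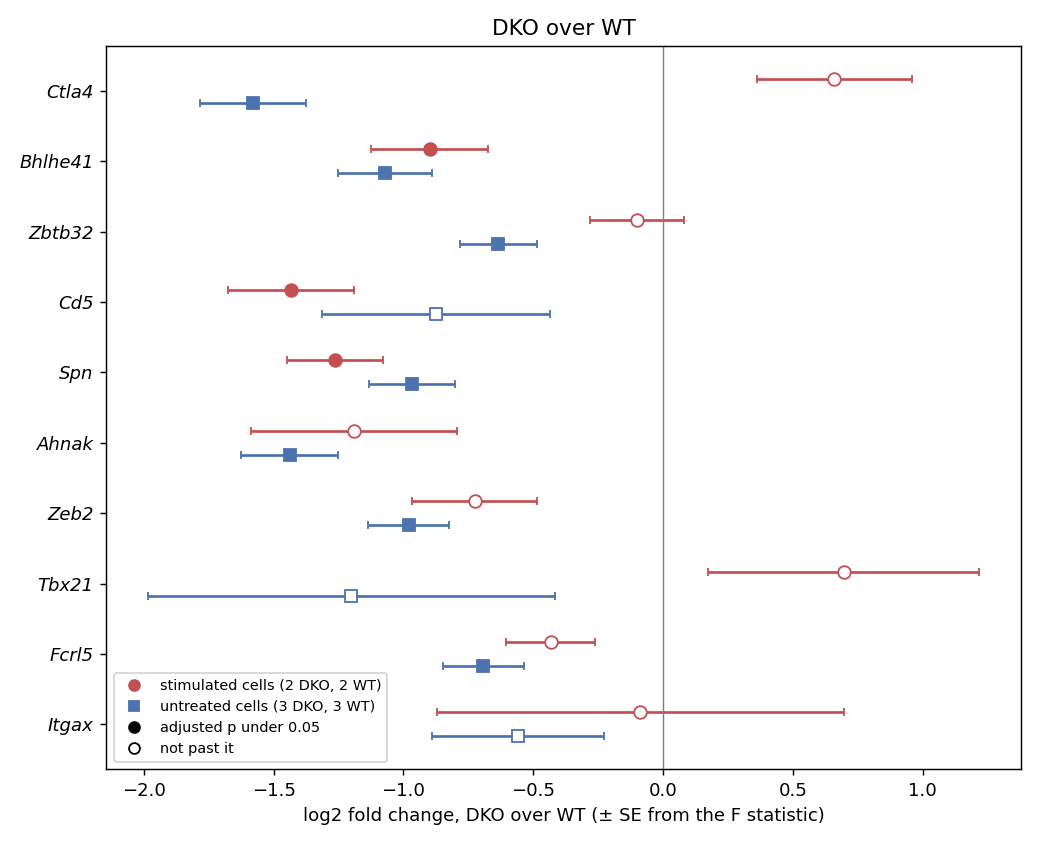
Log2 fold change of DKO over WT for each of the 10 genes, with red circles for stimulated cells (2 DKO, 2 WT), blue squares for untreated cells (3 DKO, 3 WT) and bars of ± 1 SE; filled symbols passed an adjusted p of 0.05 in edgeR. Untreated estimates all lie left of 0 and 7 are filled, while in stimulated cells Cd5, Spn and Bhlhe41 are filled and Ctla4 and Tbx21 lie right of 0.

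The promoters of Ctla4 and Bhlhe41 are shown because Ctla4 had the most negative estimate in untreated cells and because Bhlhe41 and Zeb2, both lower there, encode factors that bind E-boxes. The runs are the 250 bases before the annotated RefSeq start (GRCm38.p6), at chr1:60908775-60909024 on the plus strand for Ctla4 and chr6:145865421-145865670 on the minus strand for Bhlhe41. Capitals mark CACCTG, the E-box that ZEB factors bind, read on either strand (CAGGTG on the other), and CACGTG, the E-box of BHLHE40 and BHLHE41, which is its own reverse complement; the 2 motifs do not overlap each other.
Ctla4: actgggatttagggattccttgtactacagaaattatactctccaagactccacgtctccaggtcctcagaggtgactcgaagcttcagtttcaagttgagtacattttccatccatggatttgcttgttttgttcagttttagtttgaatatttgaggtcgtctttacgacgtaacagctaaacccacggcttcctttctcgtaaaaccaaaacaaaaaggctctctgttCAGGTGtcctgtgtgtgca
Bhlhe41: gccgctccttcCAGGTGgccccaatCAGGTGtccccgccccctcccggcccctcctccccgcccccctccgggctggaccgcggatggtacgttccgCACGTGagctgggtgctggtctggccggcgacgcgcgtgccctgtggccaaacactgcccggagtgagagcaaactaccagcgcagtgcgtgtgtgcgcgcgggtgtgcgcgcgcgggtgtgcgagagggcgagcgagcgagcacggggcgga
The Ctla4 run held 1 match, 19 bases before the start. The Bhlhe41 run held 2 matches to CACCTG, 239 and 225 bases before the start, and 1 to CACGTG, 153 bases before it. Over windows of 300 bases, from 250 before to 50 after the start, CACCTG was in 4 of the 14 windows of the 10 genes, those of Ctla4, Bhlhe41, Cd5 and Tbx21, and in 20.2% of all 32851 windows. CACGTG was in 1 of the 14, that of Bhlhe41, and in 7.15% of all windows. The T-box sequence AGGTGTGA was in 0 of the 14 and in 1.28% of all windows. These matches describe letters and are not shown to be bound.

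In stimulated cells, 3 of the 10 genes were lower in DKO than in WT, Cd5, Spn and Bhlhe41, and none was higher. The background was 6.17% of 14430 genes called lower and 5.09% called higher. The median log2 fold change was -0.58 over the 10 genes and -0.029 over all tested genes. For 6 genes both DKO libraries were below both WT libraries, which with 2 libraries a group was also true of 31.9% of all tested genes. Cd5 measured 5.76 and 4.37 CPM in stimulated DKO libraries 1 and 2, against 14.8 and 12.2 CPM in the WT libraries. At this level, well above that of untreated cells, the difference passed the test at -1.43 ± 0.24 on the log2 scale (adjusted p = 0.0103). Spn measured 30.8 and 39.6 CPM in DKO and 85.2 and 82.0 CPM in WT, with a log2 fold change of -1.26 ± 0.19 (adjusted p = 0.00668). Cd5 and Spn stayed past the threshold when any of the 4 libraries was left out.

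Bhlhe41 measured 12.6 and 18.7 CPM in stimulated DKO libraries and 30.4 and 27.4 CPM in WT libraries, with a log2 fold change of -0.90 ± 0.23 (adjusted p = 0.0379). Its call was lost without WT library 1 (adjusted p = 0.128) and without the WT library that carries no matching number (adjusted p = 0.0553). Ahnak measured 12.5 and 36.6 CPM in DKO and 51.5 and 59.7 CPM in WT. The DKO libraries differed from each other by more than the lower WT library differed from the higher DKO one, and the log2 fold change of -1.19 ± 0.40 missed the threshold (adjusted p = 0.0825). Each of the 4 fits without 1 library called Ahnak lower, with estimates between -2.14 and -0.60 on the log2 scale. Zeb2, at 11.6 and 18.3 CPM in DKO and 24.8 and 24.1 CPM in WT, gave -0.73 ± 0.24 (adjusted p = 0.0800) and passed only without DKO library 2 (-1.07, adjusted p = 9.64e-05) among those 4 fits. Fcrl5, at 31.5 and 34.4 CPM in DKO and 46.9 and 41.1 CPM in WT, gave -0.43 ± 0.17 (adjusted p = 0.129) and likewise passed only without DKO library 2 (-0.48, adjusted p = 0.0217). Without that library 19.7% of all genes were called lower and 19.8% higher.

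Ctla4 stood on the other side. Stimulated DKO libraries measured 10.6 and 13.2 CPM, and WT libraries measured 5.33 and 9.63 CPM. Both DKO values were above both WT values, but the log2 fold change of 0.66 ± 0.30 missed the threshold (adjusted p = 0.172), and it passed without DKO library 1 (0.83 ± 0.27, adjusted p = 0.0286). Zbtb32, at 23.0 and 19.6 CPM in DKO and 23.6 and 21.4 CPM in WT, overlapped between genotypes and gave -0.10 ± 0.18 (adjusted p = 0.747). Tbx21 had 55 and 19 counts in DKO and 17 and 28 in WT, and Itgax had 7 and 10 counts in DKO and 16 and 3 in WT. Neither passed the test, with log2 fold changes of 0.69 ± 0.52 for Tbx21 (adjusted p = 0.402) and -0.09 ± 0.78 for Itgax (adjusted p = 0.952). Tbx21 rested on the DKO libraries: it passed without DKO library 2 (1.203 ± 0.47, adjusted p = 0.0477) and stood at -0.05 ± 0.61 without DKO library 1 (adjusted p = 0.967).

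Within each genotype the 10 genes differed between stimulated and untreated cells in both directions. The stimulated and untreated libraries come from separate tables, and the stimulated cells alone were cultured, so stimulation, culture and table cannot be told apart. In DKO, 4 were higher in stimulated than in untreated cells (Cd5, Ctla4, Bhlhe41 and Spn) and 2 were lower (Zeb2 and Zbtb32), with 16.2% and 16.8% of 15006 genes called higher and lower. In WT, 3 were higher (Cd5, Bhlhe41 and Spn) and 4 were lower (Tbx21, Itgax, Zbtb32 and Zeb2), with 17.8% and 22.8% of genes called higher and lower. Cd5 changed most among the genes that were higher. It averaged 5.07 ± 0.99 CPM in stimulated DKO and 0.783 ± 0.355 CPM in untreated DKO cells, a 6.51-fold difference (log2 fold change 2.70 ± 0.37 SE, adjusted p = 0.000153). In WT the means were 13.5 ± 1.8 CPM in stimulated and 1.41 ± 0.48 CPM in untreated cells, a 9.32-fold difference (3.22 ± 0.33, adjusted p = 1.3e-05; SD over 2 stimulated and 3 untreated libraries). Bhlhe41 was 3.22-fold higher in stimulated DKO cells and 2.81-fold higher in stimulated WT cells, and Spn was 1.91-fold and 2.30-fold higher in DKO and WT. The additional untreated WT libraries measured 30.6 and 23.8 CPM of Bhlhe41, against 30.4 and 27.4 CPM in stimulated WT libraries. Higher Bhlhe41 in stimulated WT cells was thus seen only against the numbered WT libraries.

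Zbtb32 averaged 21.3 ± 2.4 CPM in stimulated and 34.8 ± 4.9 CPM in untreated DKO cells, and 22.5 ± 1.6 CPM in stimulated and 53.5 ± 10.0 CPM in untreated WT cells. It thus ended at overlapping levels in both genotypes after stimulation, with log2 fold changes of -0.70 ± 0.17 in DKO (adjusted p = 0.00823) and -1.27 ± 0.17 in WT (adjusted p = 0.000125). The additional untreated WT libraries measured 23.7 and 20.1 CPM of Zbtb32, against 23.6 and 21.4 CPM in stimulated WT libraries. Lower Zbtb32 in stimulated WT cells was thus seen only against the numbered WT libraries. Zeb2 gave -0.83 ± 0.21 in DKO (adjusted p = 0.00873) and -1.11 ± 0.20 in WT (adjusted p = 0.000953). The DKO calls were lost without stimulated DKO library 2 for Zbtb32 (adjusted p = 0.0619) and without stimulated DKO library 1 for Zeb2 (adjusted p = 0.0794). Tbx21 gave -1.49 ± 0.89 in DKO (adjusted p = 0.221) and -3.44 ± 0.95 in WT (adjusted p = 0.0117). Without the untreated WT library that held 624 counts the WT estimate was -1.61, and its call was lost without stimulated WT library 1 (adjusted p = 0.102) or the unnumbered stimulated WT library (adjusted p = 0.0677). Itgax gave -1.24 ± 0.58 in DKO (adjusted p = 0.121) and -1.74 ± 0.56 in WT (adjusted p = 0.0249), and its WT call was lost without untreated WT library 1 (adjusted p = 0.0832) or the unnumbered stimulated WT library (adjusted p = 0.203). Ahnak and Fcrl5 passed the test in neither genotype. With the additional WT libraries counted as untreated WT, 3 of the 7 WT calls were left. Cd5 and Spn were called higher, against 7% of all genes tested, and Zeb2 lower, against 8.97%. The calls of Bhlhe41, Zbtb32, Tbx21 and Itgax were lost.

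Ctla4 was the 1 gene of the 10 whose response to stimulation differed between genotypes in the interaction test. It was 5.11-fold higher in stimulated than in untreated DKO cells (log2 fold change 2.35 ± 0.26, adjusted p = 2.89e-05), against 1.06-fold in WT cells (0.08 ± 0.25, adjusted p = 0.813). The difference between these changes was 2.27 ± 0.36 on the log2 scale and passed the interaction test (adjusted p = 0.0282). In that test 0.133% of the 15006 genes were called higher and 0.00666% lower, 21 genes in all. The 3 untreated DKO libraries were the lowest of the 12 libraries for Ctla4 and the 2 stimulated DKO libraries were above all stimulated and numbered untreated WT libraries. The estimate was between 1.88 and 2.74 in the 10 fits that left out 1 library, but the call held in 3 of them: without untreated WT library 2, without untreated DKO library 1 and without stimulated DKO library 2. In the other 7 the adjusted p was up to 0.152. With the additional WT libraries counted as untreated WT the estimate was 3.15 (adjusted p = 0.694). None of the other 9 genes passed the interaction test, with estimates between -0.52 for Cd5 and 1.95 for Tbx21. Summed T cell markers were 137 to 188 CPM in stimulated DKO, 160 to 181 CPM in stimulated WT, 49.2 to 85.3 CPM in untreated DKO and 76.0 to 101 CPM in untreated WT libraries. Most of that sum was Lck, which B cells also transcribe, at 132 to 184 CPM, 156 to 174 CPM, 45.5 to 81.2 CPM and 72.2 to 97.0 CPM in the same groups. Cd3e had 3 to 14 counts in stimulated DKO and 3 to 6 counts in stimulated WT libraries; the part of T cells in the Ctla4 values was not tested.

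**Figure D3:**
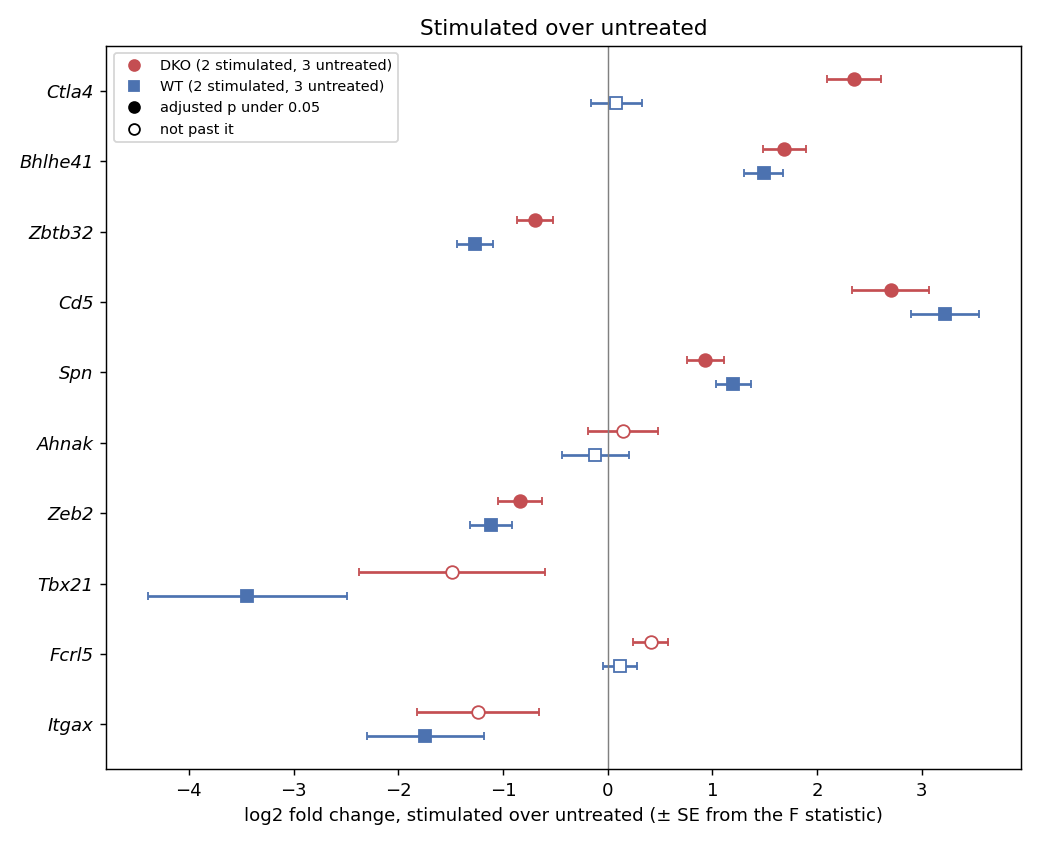
Log2 fold change of stimulated over untreated cells for each of the 10 genes, with red circles for DKO and blue squares for WT (2 stimulated and 3 untreated libraries each) and bars of ± 1 SE; filled symbols passed an adjusted p of 0.05 in edgeR. Ctla4 is filled in DKO at 2.35 and open in WT at 0.08, while Cd5, Bhlhe41 and Spn are filled to the right of 0 and Zeb2 and Zbtb32 to the left of 0 in both genotypes.

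Other genes of B1 cells were read from a list of 20, of which 17 could be tested in untreated and 16 in stimulated cells. In untreated cells 10 were lower in DKO and none was higher, against 10.6% and 8.81% of all tested genes. Of the 17 estimates 14 were negative, with a median log2 fold change of -0.54, against -0.0060 over all tested genes. The 5 with the smallest p were Nfatc1, Lgals1, Ptpn22, Il10 and Bhlhe40. Il10, the cytokine made by regulatory B1 cells, was lowest against WT, with 3 to 23 counts in DKO and 72 to 135 counts in WT libraries (-2.89 ± 0.54, adjusted p = 0.00897). Lgals1, which encodes galectin-1, averaged 3.00 ± 0.96 CPM in DKO and 9.66 ± 1.56 CPM in WT (-1.70 ± 0.24, adjusted p = 0.00349). Ptpn22, a phosphatase of antigen receptor signalling, gave -0.74 ± 0.11 (adjusted p = 0.00404), and Nfatc1, a calcium-regulated factor required for B1a cells in mice, gave -0.59 ± 0.08 (adjusted p = 0.00319). Bhlhe40, the paralogue of Bhlhe41, gave -0.39 ± 0.08 (adjusted p = 0.00957). In stimulated cells 3 of the 16 were lower in DKO, the intermediate filament gene Vim (-1.28 ± 0.17, adjusted p = 0.00431), Lgals1 (-1.39 ± 0.24, adjusted p = 0.0105) and the B1-associated factor gene Arid3a (-0.69 ± 0.18, adjusted p = 0.0433). Plscr1, a phospholipid scramblase gene, was higher (0.71 ± 0.18, adjusted p = 0.0379), and the median was -0.22. Over all genes tested in stimulated cells 6.17% were lower and 5.09% higher.

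**Figure D4:**
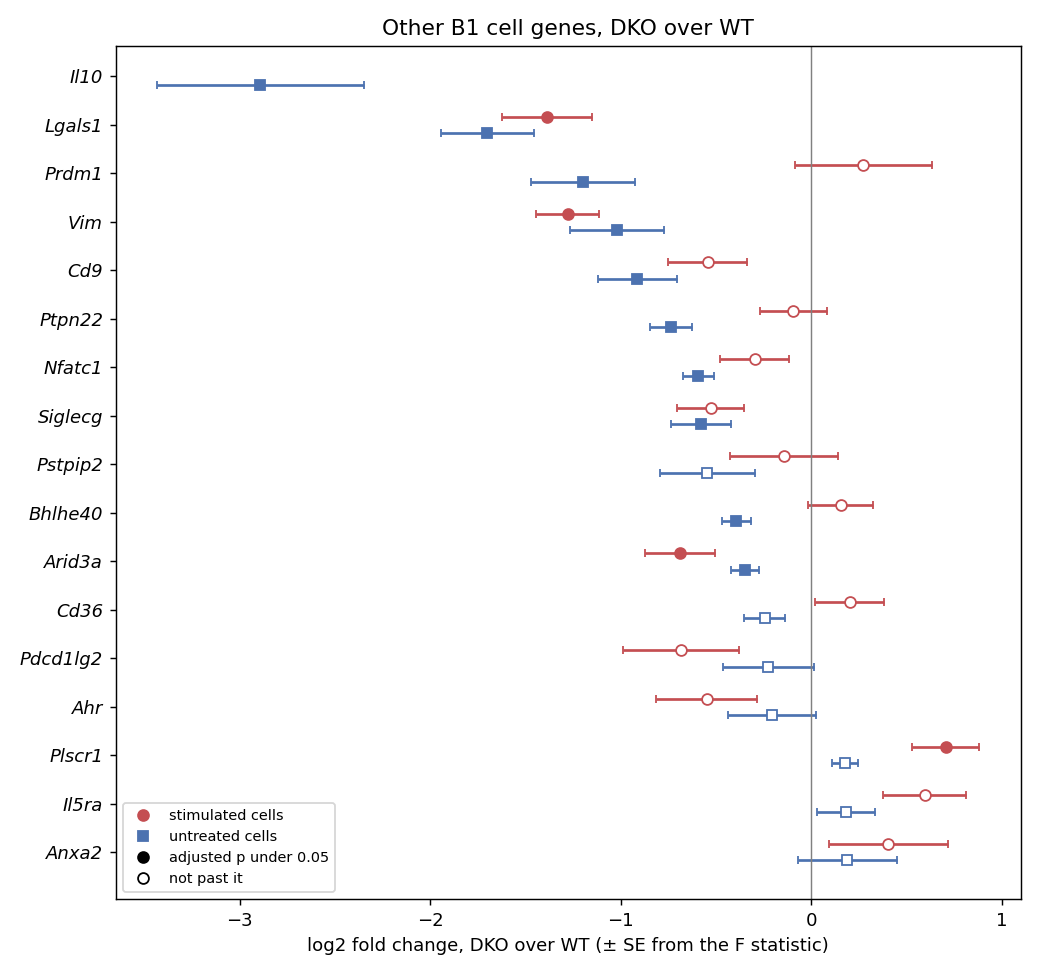
Log2 fold change of DKO over WT for the 17 other B1 cell genes tested in untreated cells, with red circles for stimulated and blue squares for untreated cells and bars of ± 1 SE; filled symbols passed an adjusted p of 0.05 in edgeR, and Il10 was not tested in stimulated cells for low counts. In all, 10 untreated values are filled and lie left of 0, down to -2.89 for Il10, and Plscr1 is the filled value right of 0.

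Other genes of age-associated and atypical B cells did not share a direction in their estimates. Of 20 listed, 19 were tested in untreated cells, where 9 estimates were negative and the median was 0.0017. By the test 6 were lower in DKO and none was higher, against 10.6% and 8.81% of all tested genes. Lgals1, which stands on both lists, Adgre1 (-1.12 ± 0.17, adjusted p = 0.00469), Sox5 (-2.27 ± 0.50, adjusted p = 0.0151), the DNA-sensing receptor gene Tlr9 (-0.43 ± 0.10, adjusted p = 0.0165) and Ifngr1 (-0.40 ± 0.11, adjusted p = 0.0332) had the smallest p. Tlr9 measured 34.4 to 38.3 CPM in the additional WT libraries, below the 42.1 to 50.7 CPM of untreated DKO libraries. Lower Tlr9 in DKO was thus seen only against the numbered WT libraries. For Lgals1, Adgre1, Sox5 and Ifngr1 the additional WT libraries lay above all untreated DKO libraries. Sox5, a transcription factor of atypical memory B cells, was scarce, with 2 to 4 counts in DKO and 13 to 21 counts in WT. In stimulated cells 18 were tested, and 3 were higher and 4 lower in DKO, against 5.09% and 6.17% of all tested genes. The median there was -0.048. The CTLA-4 ligands Cd80 and Cd86 were both higher, at 59.5 ± 4.7 CPM in DKO and 21.6 ± 2.5 CPM in WT for Cd80 (1.45 ± 0.17, adjusted p = 0.00334) and at 68.0 ± 3.6 CPM in DKO and 36.8 ± 8.5 CPM in WT for Cd86 (0.87 ± 0.20, adjusted p = 0.0281). Cxcr3, a T-bet-dependent chemokine receptor gene, was higher too, with 30 to 49 counts in DKO and 7 to 11 in WT (2.14 ± 0.48, adjusted p = 0.0270). Ifngr1, the ligand-binding chain of the interferon-gamma receptor, was lower (-1.11 ± 0.17, adjusted p = 0.00773). Lgals1 was lower as well, at 5.70 ± 1.45 CPM in DKO and 14.8 ± 0.48 CPM in WT.

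Genes that are low in B1 and age-associated B cells and high in follicular or marginal zone cells gave no common direction either. In untreated cells Fcer2a, which encodes CD23, averaged 495 ± 112 CPM in DKO and 263 ± 43 CPM in WT (0.90 ± 0.17, adjusted p = 0.00962), and Ighd was also higher (0.31 ± 0.08, adjusted p = 0.0231). The additional WT libraries measured 535 to 717 CPM of Fcer2a, against 378 to 602 CPM in untreated DKO libraries. Higher Fcer2a in DKO was thus seen only against the numbered WT libraries. Klf2, a quiescence and homing factor gene, was lower (-1.11 ± 0.19, adjusted p = 0.00628). In stimulated cells Cxcr5 was higher in DKO (0.73 ± 0.19, adjusted p = 0.0433), and Cr2 was lower (-0.996 ± 0.25, adjusted p = 0.0382).

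Over the 10 libraries of the numbered tables, the 10 genes did not run as 1 group. Spn, Bhlhe41 and Cd5 ran together (Pearson r of log2 CPM from 0.85 to 0.95), and so did Zbtb32 with Itgax (0.86), Tbx21 (0.83) and Zeb2 (0.79). Across these sets r was negative for Cd5 with Zbtb32 (-0.67) and with Itgax (-0.70). These values describe 10 libraries that share 4 groups, so they follow the stimulation and genotype means. The nearest other genes were Naip6 and Kmo for Spn (0.99 each), Endou and Cmah for Bhlhe41 (0.98 each), Zfp90 (0.99) and Ceacam16 (0.98) for Cd5, Klf13 (0.99) and Lilrb4a (0.97) for Zeb2, and Psmb10 and Tspo for Zbtb32 (0.98 each). Rasgef1a (0.97) and Cdkn2d (0.96) were nearest to Ctla4, Egf and Gk5 (0.97 each) to Ahnak, Car13 (0.98) and Tnni3 (0.96) to Fcrl5, and Mmp14 (0.96) and Svip (0.95) to Itgax.

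Markers of other blood cells were read beside these results, since several of the 10 genes are also active in T, natural killer or myeloid cells. In untreated cells summed monocyte and macrophage markers ran at 41.6 to 77.5 CPM in DKO and 68.3 to 83.8 CPM in WT. Dendritic cell markers ran at 152 to 180 CPM in DKO and 144 to 198 CPM in WT, and neutrophil markers at 0.728 to 5.16 CPM in DKO and 0.148 to 5.01 CPM in WT. Most of the dendritic sum was Bst2, at 73.5 to 103 CPM in DKO and 85.6 to 119 CPM in WT, and Zbtb46. Zbtb46 measured 49.9 to 60.6 CPM in DKO and 40.0 to 43.6 CPM in WT, while Clec9a, Siglech and Cd209a had at most 17 counts. In stimulated cells, monocyte and macrophage markers ran at 57.4 to 62.8 CPM in DKO and 66.5 to 76.4 CPM in WT, natural killer markers at 3.94 to 4.60 CPM in DKO and 8.08 to 8.38 CPM in WT, and dendritic markers at 77.6 to 94.1 CPM in DKO and 52.6 to 56.3 CPM in WT. Most of the natural killer sum was Il2rb, at 2.95 to 3.44 CPM in DKO and 6.26 to 6.64 CPM in WT. Most of the dendritic sum was Zbtb46, at 29.4 to 32.9 CPM in DKO and 17.7 to 23.6 CPM in WT, and Flt3. Flt3 measured 25.0 to 31.9 CPM in DKO and 13.5 to 16.4 CPM in WT. Of the genes tested in untreated cells, 0 of 2 T cell, 1 of 3 natural killer, 1 of 7 monocyte and macrophage and 2 of 6 plasma cell markers were lower in DKO (Il2rb, Adgre1, Xbp1 and Prdm1), and 1 of 6 dendritic markers was higher (Zbtb46). Over all tested genes 10.6% were lower and 8.81% higher. In the additional WT libraries Xbp1, at 56.9 to 70.0 CPM, lay below the untreated DKO libraries, at 71.9 to 94.2 CPM. Il2rb, at 2.86 to 3.24 CPM, lay within the DKO range of 2.38 to 4.27 CPM. Lower Xbp1 and Il2rb were thus seen only against the numbered WT libraries, while Adgre1 and Prdm1 were above DKO in the additional libraries too. In stimulated cells the counts were 0 of 4 T cell, 1 of 2 natural killer, 1 of 5 monocyte and macrophage and 2 of 6 plasma cell markers lower (Il2rb, Adgre1, Slamf7 and Xbp1), and 1 of 4 dendritic markers higher (Flt3). There 6.17% of all tested genes were lower and 5.09% higher. Of the B cell defining genes, Cd22 was lower in both untreated and stimulated DKO cells, and no neutrophil marker could be tested. Ncr1 was at 0 counts in all 4 stimulated libraries and reached 10 counts in untreated DKO and 14 counts in untreated WT libraries. The part of these cells in the results was not tested.

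By the coordinates deposited (GRCm39), the 10 genes lie apart on 7 chromosomes. Ctla4 is at chr1:60926159-60954991, Zeb2 at chr2:44873644-45007407, Fcrl5 at chr3:87343080-87407985, Bhlhe41 at chr6:145803969-145811284 and Tbx21 at chr11:96988897-97006157. Zbtb32 at chr7:30289106-30298334, Spn at chr7:126731404-126736995 and Itgax at chr7:127728719-127749829 share chromosome 7, and Ahnak at chr19:8966648-9054278 and Cd5 at chr19:10694480-10716366 share chromosome 19. Annotated genes overlap 3 of them: Zeb2os, antisense to Zeb2, with at most 77 counts, Gm43909, antisense to Bhlhe41, with at most 23 counts, and Rpl18-ps1 within Ctla4, with at most 4 counts. No source used here gives the strand setting of the counting, so reads of Zeb2 and Zeb2os, and of Bhlhe41 and Gm43909, may not be fully separated.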

How the data were processed

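Splenic B cell mRNA was measured by poly(A) RNA sequencing in 12 libraries. Per the submitters' processing notes, reads went through FastQC 0.10.1, cutadapt 1.9.1, HISAT2 2.2.1 and HTSeq 0.6.1 with GRCm39, with no settings stated. The authors deposited raw counts per gene and exonic gene lengths, which were used here, and 12 FPKM columns, which were not. Coordinates in the table of additional WT libraries are of an older build and were not used.

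The quasi-likelihood F-test of edgeR 4.0.16 (R 4.3.3) was run on the counts after TMM scaling, on genes passing filterByExpr (at least 10 counts, 15 in total), with Benjamini-Hochberg adjustment over all genes tested and 0.05 as the threshold. Genotypes were compared, DKO over WT, within untreated (6 libraries) and stimulated cells (4 libraries). The stimulated over untreated changes and the interaction came from 1 fit over 10 libraries in 4 groups, on genes in both tables. All 10 genes passed the filter in every comparison. An SE is the log2 fold change divided by the square root of the F statistic. CPM used TMM factors over all 12 libraries, and RPKM divided CPM by the deposited length in kilobases. Column headers did not carry the label number of 1 stimulated WT library and of both additional WT libraries, so these were used by group only. The tests were also run on simulated data with 200 changed genes, and the outcome is not given here. The simulation drew each gene separately, so it held no library that stood apart over many genes.

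The 10 genes, the 10 lists and the tests were chosen with earlier results of these data known. The text names the 10 genes, for each the 2 genes with the highest Pearson r of log2 CPM (prior count 2) over 10 libraries, leaving out symbols with a Gm or Rik form and immunoglobulin segments, and up to 5 genes by smallest p from each list of related B cell genes. Promoter sequences are RefSeq windows of GRCm38.p6, found for all 10 genes. Other settings tried were DESeq2 1.42.0, RLE scaling, all genes unfiltered, a stricter minimum of 1 CPM, leaving out each library, a replicate block, 1 fit over 10 libraries, a term for sex, male libraries only and 3 uses of the additional WT libraries. Some genes of the marker lists are not reported here.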

Additional observations from a re-analysis of the deposited data

Results flagged for a closer look

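The response of Ctla4 to stimulation differed between genotypes by 2.27 ± 0.36 on the log2 scale in edgeR's interaction test (SE; adjusted p = 0.0282). It was listed because a test of the difference itself passed its threshold. Stimulated DKO libraries measured 10.6 and 13.2 CPM and untreated DKO libraries 2.20, 2.61 and 2.18 CPM, against 5.33 and 9.63 CPM in stimulated WT and 8.21, 6.05 and 6.51 CPM in untreated WT libraries. The call held in 3 of the 10 fits that left out 1 library.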

How the results depend on the processing

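For the 10 genes in untreated cells, the count of 7 called in DKO against WT was 7 with RLE scaling, DESeq2, either other filter, a term for sex and male libraries only. It was 5 to 7 with 1 library left out and 3 with the additional WT samples taken as WT. Over all genes, 2638 calls became 923 to 2779 with 1 library left out (lowest without WT library 3), 319 with the additional WT samples taken as WT, 8533 with them in place of the numbered ones, which left 5 libraries, and 4392 with a term for sex. With the additional libraries in place of the numbered ones Zbtb32 turned to 0.70. That alternative was chosen after seeing the data, as were those on additional samples and male libraries in the stimulation and interaction tests. In stimulated cells, 3 of the 10 genes and 1625 genes in all became 5 and 2847 with no filter, 5 and 3429 in 1 fit over 10 libraries, and 3 to 7 and 576 to 5977 with 1 library left out, highest without DKO library 2 and lowest without the unnumbered WT library. For stimulated over untreated WT cells, 7 and 6097 calls became 3 and 2437 with the additional WT samples taken as WT, and 3557 to 7031 genes with 1 library left out, lowest without the unnumbered WT library. For DKO the counts of 6 and 4952 stayed within 1.5 times in every alternative run. The interaction, with 1 of the 10 genes and 21 genes in all, gave 174 genes with DESeq2, 2 and 491 with no filter (Ctla4 and Tbx21), 0 and 2 with the additional WT samples taken as WT, 62 genes in male libraries only, and 0 to 1 and 1 to 1244 with 1 library left out, highest without stimulated DKO library 2. The cause of these changes was not tested. Where a group was left with 1 library, that library was assumed to vary like the other groups.

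Same-numbered untreated DKO and WT libraries did not deviate together (r of -0.35, -0.35 and 0.14 over genes), so the numbers were not taken as pairs. A replicate block gave 786 genes and 5 of the 10, without Zbtb32 (adjusted p = 0.0881) and Fcrl5 (adjusted p = 0.0507). It was not run in stimulated cells, where 1 WT library carries no label number.

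Counts were lowest for Cd5 and Itgax in untreated cells and for Tbx21 and Itgax in stimulated cells, at 6 to 44 and 3 to 55 counts per library; whether depth set their missed calls was not tested.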
